A study of Mus musculus with 7 samples.

Results

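Type I interferon response genes are the antiviral genes that cells switch on when an interferon binds its receptor, and 42 of them were followed here in regulatory T cells. They were listed by gene symbol, leaving out the interferon regulatory factors and the immunity GTPases, and all 42 were found among the 39179 genes of the table. Regulatory T cells, CD4+ cells that depend on the factor Foxp3, hold other immune cells in check. They were sorted as CD4+TCRb+CD25hi Foxp3+ cells from lymph nodes of C57BL/6 mice at 3 weeks of age, and their messenger RNA was sequenced. The 3 numbered double-knockout (dKO) libraries came from Id2fl/flId3fl/flFoxp3cre mice, in which Cre made from Foxp3 deletes Id2 and Id3, the inhibitors of E protein transcription factors. The 2 numbered control libraries came from Id2fl/+Id3fl/+Foxp3cre mice, so the control cells carried the same Cre and 1 floxed allele of each gene. A further library titled as control and 1 titled as dKO bear no number, and their genotype tags are the reverse of their titles. By title, the former is called the library labelled control here and the latter the library labelled dKO.

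Interferons alpha and beta bind a receptor made of Ifnar1 and Ifnar2, whose kinases Jak1 and Tyk2 activate transcription factors such as Stat2. Together with Irf9, Stat2 is part of a complex that binds the interferon-stimulated response element (ISRE) in the promoters of the induced genes. The products include sensors of foreign nucleic acid, enzymes and RNA-binding proteins that block viral replication, and proteins such as Usp18 that damp the signal. In T cells the resting level of many of these genes reflects tonic interferon signalling.

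The promoter stretches below are shown because they hold the ISRE core. They are from the 6 members holding it whose fall in dKO had the smallest adjusted p. The core searched was GAAANNGAA, which reads TTCNNTTTC on the other strand, and overlapping matches were kept. RefSeq promoter windows (GRCm38.p6) run from 250 bases before a gene's start to 50 after it, and 28 of the 42 members had at least 1. At least 1 core was present in 21 of 38 member windows (55.3%), against 2812 of 32851 windows of all genes (8.56%). Members were chosen as interferon-induced genes, so a higher share follows at least in part from that choice. The windows of Apol9a and Apol9b were counted separately. Each line is 80 bases on the gene's own strand, with the cores in capitals. The Apol9a stretch lies at chr15:77411092-77411171 (minus strand) and the Apol9b stretch, with the same letters, at chr15:77729003-77729082 (plus strand). The others lie at chr3:151749870-151749949 (Ifi44, minus), chr19:34640757-34640836 (Ifit1, plus), chr6:3399522-3399601 (Samd9l, minus) and chr5:120907499-120907578 (Oas1a, minus).
Apol9a and Apol9b: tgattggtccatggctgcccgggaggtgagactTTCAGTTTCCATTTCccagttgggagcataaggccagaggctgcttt
Ifi44: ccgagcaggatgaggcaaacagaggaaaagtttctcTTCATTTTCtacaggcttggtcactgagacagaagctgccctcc
Ifit1: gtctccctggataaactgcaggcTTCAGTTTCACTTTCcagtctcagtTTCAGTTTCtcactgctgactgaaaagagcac
Samd9l: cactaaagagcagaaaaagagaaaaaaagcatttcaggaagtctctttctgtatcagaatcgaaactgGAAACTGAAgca
Oas1a: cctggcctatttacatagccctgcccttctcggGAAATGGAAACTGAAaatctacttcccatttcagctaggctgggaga

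In these stretches Ifit1 carried 3 cores, the first at position -109 from its start. Apol9a, Apol9b and Oas1a each carried 2 that overlap. The single core of Ifi44 began at position -3, and that of Samd9l at position 38, after the start. The core was not limited to members that fell: 8 of 11 called members with a window held it, and 10 of 17 members that were not called. Isg15, with 3 cores, and Stat2, with 1, were among the latter. A match is a description of the letters and not evidence that a factor binds there. Mx1, Mx2, Oas2, Usp18, Rtp4, Dhx58, Zbp1, Parp9, Parp14, Tor3a, Ifi27l2a, Ifi204, Ly6a and Ly6e had no window.

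Values of the numbered libraries are group means in scaled counts, that is, reads divided by a size factor per library, with a sum of 38950892 for control and 39948550 for dKO. Size factors were 1.29 and 1.09 in control and 0.860 to 0.929 in dKO, so control libraries were 1.32 times deeper on average. The targeted gene Id2 went from 783 to 61.1 scaled counts (adjusted p 1.48e-08), while Id3 went from 1376 to 891 (adjusted p 0.209), by the authors' deposited table. The control libraries differed in reads of Y-linked genes: 601 of the 616 reads of Kdm5d and Uty lay in the one called control library A here, and the other is called control library B. Counts of called genes without library A could not be had from group means. The labels do not say that each library came from its own mouse. The unlike Y-linked reads show that the control libraries were not repeats of the same cells. For the dKO libraries this cannot be told, and the p-values may therefore rest in part on technical spread. Foxp3 (13481 in control, 10942 in dKO), Il2ra and Cd3e were abundant in both groups of the authors' deposited table, as the sort requires.

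Most interferon response genes had lower mean levels in dKO regulatory T cells than in control cells, by very unequal amounts. Of the 42 members, 14 fell, 0 rose and 28 stayed short of an adjusted p of 0.05 by the authors' deposited table. The members were chosen with earlier results of these data known, so these counts and the shares beside them are description. Over all 31641 genes with a p, 3.18% were called lower and 3.38% higher, and among the 15446 genes averaging at least 10 scaled counts, a level that all 42 members reach, 6.48% were called lower and 6.80% higher. Without adjustment, 25 members lay under a p of 0.05 in the lower direction and 2 (Ly6a and Ly6e) in the higher direction, by the authors' deposited table. The share of all genes under that unadjusted p was not taken, so the shares above cannot be set beside these counts. The log2 fold change was below 0 in 37 members (88.1%), against 50.9% of genes with a mean of 10 or more, and its median was -0.56 against -0.01. In bulk samples a smaller share of cells expressing a gene and less RNA per cell cannot be told apart.

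**Figure D1:**
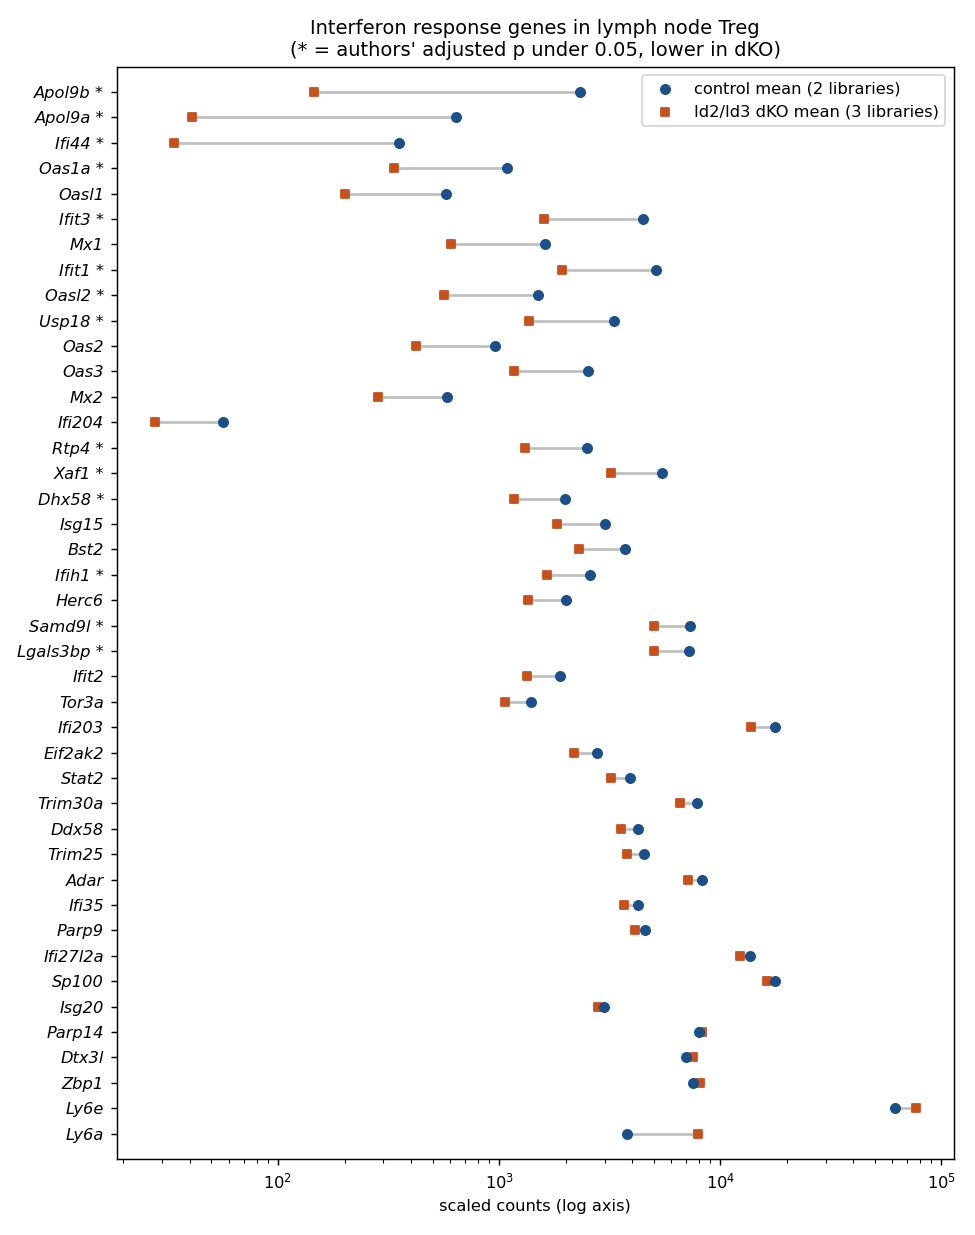
Mean scaled counts (log axis) of each of the 42 members in control (circles, 2 libraries) and dKO (squares, 3 libraries), ordered by fold change, with an asterisk for members called lower. The gap is widest for Apol9b, Apol9a and Ifi44, and only 5 members at the foot have the dKO square to the right of the control circle.

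The apolipoprotein L genes Apol9a and Apol9b, which are interferon-induced in mice, showed the largest falls of any member. Apol9b (chromosome 15, 77729121 to 77736381, GRCm38) went from 2318 scaled counts in control to 145 in dKO, a log2 change of -4.00 (adjusted p 3.54e-08) by the authors' deposited table. Apol9a (chromosome 15, 77403789 to 77411080) went from 641 to 40.8, a log2 change of -3.97 (adjusted p 2.22e-46) by the authors' deposited table. Their transcripts are 98.4% identical over 97.1% of the length, so reads may be split between them, and their sum changed by -3.99. The fall of Apol9a was 15.7-fold. Over 232 aligned bases their promoter windows were 100% identical. In control, Apol9b stood at 1500 scaled counts per kilobase of exon and Apol9a at 408, and in dKO at 93.9 and 25.9.

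Ifi44, an interferon-induced cytoplasmic protein, was the other member with a fall of this order. It went from 351 scaled counts in control to 33.8 in dKO (chromosome 3, 151730922 to 151749947), a log2 change of -3.38 (adjusted p 2.83e-23) by the authors' deposited table.

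For members with a low group mean, the whole reads of each control library could be recovered from the 4 decimals of the mean. In control library A, Apol9a had 745 reads (579 scaled counts), and in control library B it had 768 reads (703 scaled counts). The dKO mean of 40.8 could arise from 2 sets of whole reads, in which the highest dKO library had 55.8 or 47.4 scaled counts. Under either set, each dKO library lay far below each control library. Ifi44 had 491 reads (382 scaled counts) in library A and 350 reads (320 scaled counts) in library B. Its dKO mean allowed 3 sets of whole reads, with a highest dKO library of 87.2, 54.9 or 56.0 scaled counts. The groups did not overlap for Ifi44 under any of them. For both genes this follows from the low dKO mean alone, since none of 3 libraries can exceed 3 times their mean. The dKO libraries of Ifi44 may have differed widely, since the lowest was 1.10, 15.1 or 4.65. Recovery of dKO reads was not tested on simulated data, so these sets are uncertain.

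Oasl1, Mx2 and Ifi204 were less even between the controls. Oasl1 had 723 scaled counts in library A and 430 in library B, against a dKO mean of 201. Mx2 had 703 and 461, against a dKO mean of 284. In these genes the dKO mean was below both control libraries, and the log2 fold change of Oasl1 was -1.09 without library A and -1.84 without library B. That of Mx2 was -0.70 and -1.31. Ifi204, a DNA-binding protein of the PYHIN family, had 84.0 scaled counts in library A and 29.3 in library B, against a dKO mean of 27.7, so its log2 fold change of -1.03 became -0.08 without library A. The library rich in Y-linked reads was the higher control for Oasl1, Mx2, Ifi204 and Ifi44 and the lower one for Apol9a. In Y-linked reads the dKO means were near library B, and the part of sex in these values was not tested.

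**Figure D2:**
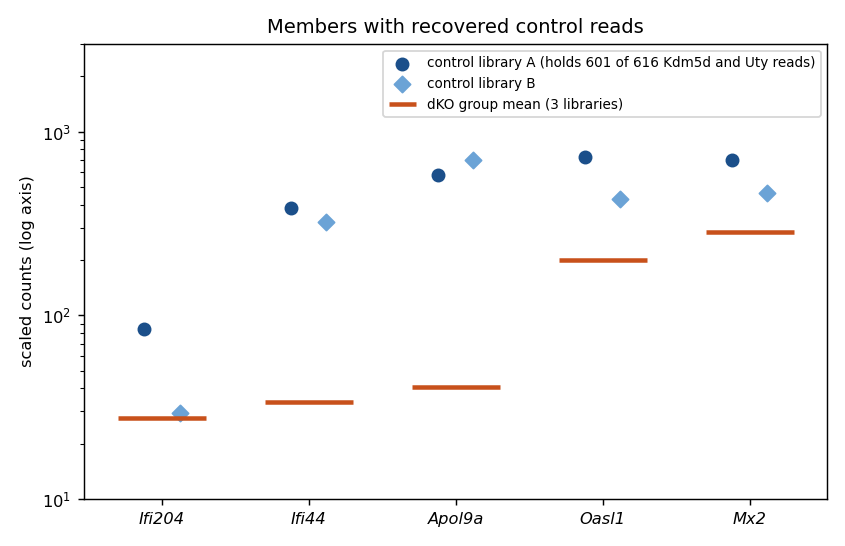
Scaled counts (log axis) of the 5 members with recovered control reads, for control library A (circles), control library B (diamonds) and the dKO group mean (bars). The lower control is 14.2 times the dKO mean for Apol9a and 9.49 times for Ifi44, while for Ifi204 control library B (29.3) lies near the dKO mean (27.7).

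For Oas1a, Oas2 and Oasl2 the control mean allowed 2 pairs of whole reads each. Oas1a had either 584 and 1588 or 1383 and 789 scaled counts in libraries A and B, above its dKO mean of 334 in either case. Oas2 had 383 and 1533 or 1182 and 734 (dKO mean 421), and Oasl2 had 1758 and 1238 or 2557 and 439 (dKO mean 565). For Oas2 and Oasl2 it therefore cannot be told whether both controls lay above the dKO mean. The same holds for Ifit2, Mx1 and Tor3a, whose control means allowed 3 pairs each. Some pairs put both controls above the dKO mean. Others put library B below it, as low as 233 for Ifit2 (dKO mean 1340), 419 for Mx1 (dKO mean 605) and 542 for Tor3a (dKO mean 1063).

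The Ifit proteins bind viral RNA and sit in a cluster on chromosome 19 (34550694 to 34650009). Ifit1 fell from 5130 scaled counts to 1930 (log2 -1.41, adjusted p 0.0017) by the authors' deposited table. Its neighbour Ifit3 fell from 4488 to 1597 (log2 -1.49, adjusted p 0.0341) by the authors' deposited table. A near-identical gene listed as I830012O16Rik (97.8% identity with Ifit3) went from 869 to 268, and the sum with Ifit3 changed by -1.52. Ifit2, from the same cluster, went from 1893 to 1340 (adjusted p 0.0697, not past the threshold) by the authors' deposited table. Thus 2 of the 3 members in this cluster of 99.3 kilobases passed, and the difference between their folds was not tested.

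The oligoadenylate synthetase family makes enzymes that activate RNase L upon sensing double-stranded RNA, and relatives without that activity. The 5 of its genes among the 42 members had log2 fold changes from -1.70 to -1.10. Oas1a fell with a log2 change of -1.70 (1086 and 334 scaled counts, adjusted p 0.0191) and Oasl2 from 1498 to 565 (log2 -1.41, adjusted p 0.023) by the authors' deposited table. Oasl1, which restrains translation of Irf7, went from 577 to 201 (log2 -1.52, adjusted p 0.0909) by the authors' deposited table. Oas3 went from 2512 to 1171 (adjusted p 0.127) and Oas2 from 958 to 421 (adjusted p 0.311) by the authors' deposited table. Thus 2 of these 5 passed. Of the family's other genes on the lists read beside the members, by the authors' deposited table, Oas1b (log2 -0.43), Oas1c (log2 -0.38) and Oas1g (14.4 and 7.22 scaled counts) did not pass. The Oas1a transcript is 97.6% identical to that of Oas1g.

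The dynamin-like GTPases Mx1 and Mx2 did not pass, with log2 fold changes of -1.42 and -1.03. Mx1 had 1618 scaled counts in control against 605 (adjusted p 0.169) and Mx2 had 582 against 284 (adjusted p 0.370) by the authors' deposited table. C57BL/6 mice are known to carry defective alleles of these genes, and their transcripts are listed under non-coding RefSeq entries in the other deposited table. Among the 14 members with a log2 fold change of -1 or lower, 8 were called, and the 6 that were not were Oasl1, Mx1, Oas2, Oas3, Mx2 and Ifi204. Of all genes with a mean of 10 or more, 4.76% had a log2 fold change of -1 or lower.

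Of the 8 nucleic acid sensors, 7 had a log2 fold change below 0, and differences in fold between them were not tested. Ifih1 (MDA5), a sensor of long double-stranded RNA, fell by 0.64 on the log2 scale (2563 and 1640 scaled counts, adjusted p 0.0218), and Dhx58 (LGP2), its regulator, fell from 1992 to 1172 (log2 -0.77, adjusted p 0.0311) by the authors' deposited table. Dhx58 overlaps another gene and may share its reads. The third helicase of this family, Ddx58 (RIG-I), went from 4267 to 3573 (adjusted p 0.324) by the authors' deposited table. Eif2ak2 (the kinase PKR), the RNA editor Adar, the Z-nucleic acid sensor Zbp1 and the PYHIN genes Ifi203 and Ifi204 did not pass either, with log2 fold changes from -1.03 (Ifi204) to 0.11 (Zbp1). Ifi203 was among the most abundant members, at 17758 scaled counts for control against 13839 for dKO (adjusted p 0.286) by the authors' deposited table.

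Of the 6 members of the ISG15 system and the ubiquitin ligases, 1 passed the test. With so few members, 1 call is near the 6.48% called lower over genes averaging 10 scaled counts and above. The count is thus no result about this group. Usp18, which removes ISG15 from proteins and blocks the interferon receptor, fell from 3312 to 1369 scaled counts (log2 -1.27, adjusted p 0.0032) by the authors' deposited table. Isg15 itself, the ubiquitin-like modifier, went from 3021 to 1825 (log2 -0.73, adjusted p 0.420), and Herc6, the mouse ligase for ISG15, from 2010 to 1346 (log2 -0.58, adjusted p 0.0973) by the authors' deposited table. The ubiquitin ligases Trim25, Trim30a and Dtx3l had log2 fold changes of -0.25, -0.26 and 0.10 by the authors' deposited table. The difference between Usp18 and Isg15 in fold was not tested.

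Of the 4 members grouped under signal transduction, 0 passed. In a group this small, 0 calls is near the same share of 6.48% called lower, so this count is no result about the group either. Stat2, a part of the complex that binds the ISRE, went from 3905 to 3222 scaled counts (adjusted p 0.872) by the authors' deposited table. Parp9 and Parp14, ADP-ribosyltransferase family members, and Ifi35 lay between -0.20 and 0.04 on the log2 scale. Parp9, Parp14 and Dtx3l lie together on chromosome 16 (35832874 to 35972605), and the log2 fold changes across this cluster ran from -0.16 to 0.10.

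**Figure D3:**
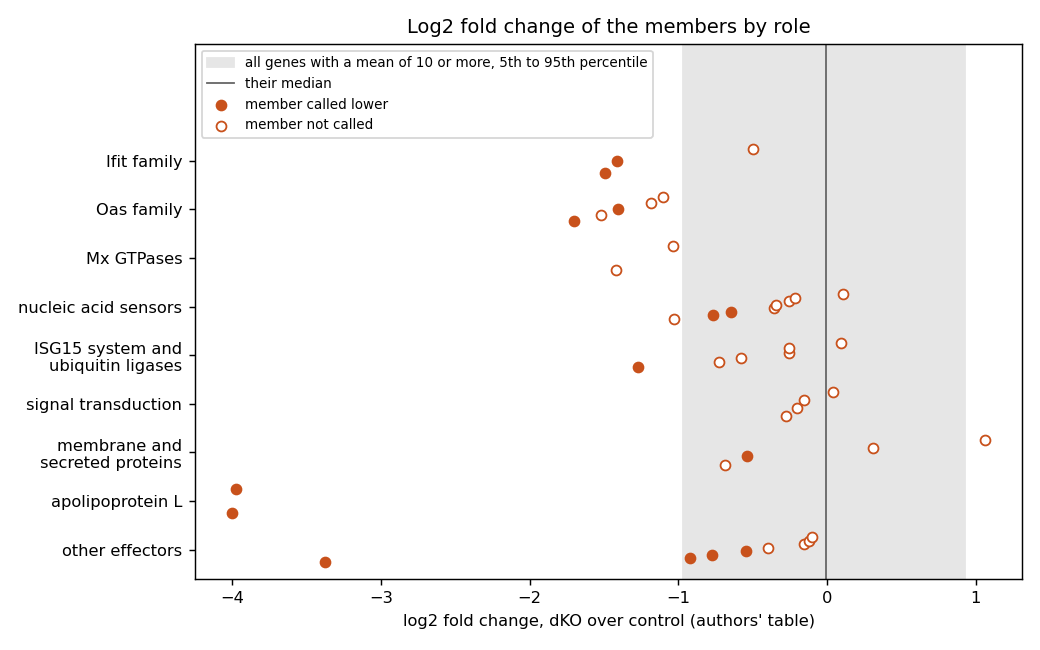
Log2 fold change (dKO over control, authors' table) of each member by role, filled where called lower and open where not called. The grey band is the 5th to 95th percentile of genes with a mean of 10 or more (-0.97 to 0.93). All Oas and Mx points lie left of the band, and all signal transduction points lie inside it.

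Among membrane and secreted proteins the directions differed. Lgals3bp, a secreted glycoprotein that binds galectins, fell from 7254 to 4992 scaled counts (log2 -0.54, adjusted p 0.0026) by the authors' deposited table. Bst2 (tetherin), which holds budding virions at the cell surface, went from 3705 to 2297 (adjusted p 0.173) by the authors' deposited table. Ly6a (Sca-1), a surface protein of activated T cells, went the other way, from 3800 to 7926 (log2 1.06, adjusted p 0.180), and Ly6e, from the same locus, from 61555 to 76406 (log2 0.31, adjusted p 0.176) by the authors' deposited table. Ly6e made up 25.2% of the summed scaled counts of the members in control. The sum over all members was 244518 in control and 221496 in dKO, and without Ly6e it was 182963 and 145090.

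Of the other effectors, 3 fell besides Ifi44. Rtp4, a chaperone of G protein-coupled receptors, fell from 2484 to 1312 scaled counts (log2 -0.92, adjusted p 2.84e-05) by the authors' deposited table. Xaf1, a binding partner of the apoptosis inhibitor XIAP, fell from 5457 to 3196 (log2 -0.77, adjusted p 2.04e-07), and the antiviral factor Samd9l from 7285 to 5002 (log2 -0.54, adjusted p 0.0028) by the authors' deposited table. Tor3a, an ATPase of the torsin family, lay just outside the threshold, from 1398 to 1063 (adjusted p 0.0593) by the authors' deposited table. Sp100, a nuclear body protein, Ifi27l2a and the exonuclease Isg20 had log2 fold changes from -0.15 to -0.10, with adjusted p-values listed at 1 by the authors' deposited table. Sp100 had 17591 and 16195 scaled counts and Ifi27l2a 13638 and 12273, so these abundant members were nearly level between the groups, as were Parp14 (8023 and 8266) and Zbp1 (7539 and 8116).

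The rest of the pathway was read from lists of other genes. Of genes with a mean of 10 or more, 6.48% were called lower and 6.80% higher. In a list this short, a single call or none is near those shares and is no result about the list. Of 12 receptor and signal transduction genes, which include Stat2, Ifnar1 rose by 0.39 on the log2 scale (6219 and 8157 scaled counts, adjusted p 0.0444), with 0 falls and 11 genes short of the threshold by the authors' deposited table. Irf9 (6255 and 4928, adjusted p 0.0869) was among the latter, as were the phosphatase gene Ptpn6 (log2 -0.23) and the feedback inhibitor gene Socs3 (log2 0.65), by the authors' deposited table. Interferon genes themselves were barely read: of 12 ligand genes 11 had a p and 0 passed, and apart from Ifng (94.3 and 74.4 scaled counts) and Ifnz (0.458 and 8.95, adjusted p 0.0707) each had fewer than 3 in either group. Of 13 upstream sensors, adaptors and kinases, 2 fell and 0 rose. Tlr7, the endosomal sensor of single-stranded RNA, fell from 1001 scaled counts (log2 -2.31, adjusted p 7.81e-24), and Tlr3 fell from 18.3 to 3.37 (adjusted p 0.0252) by the authors' deposited table. The adaptor gene Ticam1 went from 998 to 749 (adjusted p 0.066), and the transcription factor gene Irf7 went from 5385 to 3151 (adjusted p 0.119) by the authors' deposited table.

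Of 42 further interferon-induced genes, 11 fell, 0 rose and 31 did not pass, with a median log2 fold change of -0.38. Among all genes with a mean of 10 or more, 6.48% were called lower and 6.80% higher. This list too was written with earlier results of these data known and is no separate support. Ms4a4b, a T cell membrane protein, fell from 27302 to 10502 scaled counts and Ms4a4c from 2045 to 637 (log2 -1.68) by the authors' deposited table. Trim14 changed by -0.73 and Phf11a by -0.69 (log2) by the authors' deposited table. In the type II interferon pathway, by the authors' deposited table, the receptor gene Ifngr2 fell by 0.46 on the log2 scale (adjusted p 0.0134), while the other 7 of the 8 listed genes did not pass. A single call in so short a list is near the share over all genes.

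Markers of other cells that make or answer interferon were read as lists. These lists are short, so a single call or none is near the shares over all genes given above. Of 6 plasmacytoid dendritic cell markers 0 passed, with a summed level of 1281 scaled counts in control and 812 in dKO that came mostly from Ccr9 and Tcf4, while Siglech had 13.7 and 15.6 and Cox6a2 and Klk1 under 3 in each group. Of 8 myeloid and dendritic cell markers 1 passed, Xcr1, which was lower in dKO, and the list summed to 278 and 236. Of 5 B cell markers 0 passed (971 and 1066 in sum, mostly Cd79b). Of the CD8 T cell markers (680 and 714 in sum, mostly Cd8b1), the NK cell markers (70.5 and 65.5) and the stromal and endothelial markers (4786 and 4534, mostly Pecam1) 0 passed. Of 6 regulatory T cell markers Ctla4 alone rose (13258 and 26706). The part of such cells in the members' falls was not tested.

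The unnumbered pair gave a separate look at 41 members, with 1 library per group and therefore no test, in FPKM, which is scaled by transcript length and depth. Ifi203 had no matched entry, and Ifi204 was under 1 FPKM in each library (0.340 and 0.220). By title, Id2 had 18.6 FPKM in the library labelled control and 9.69 in the library labelled dKO, while Id3, the other deleted gene, had 160 and 221, against the titles. Read by the genotype tags instead, every direction below would be reversed. These libraries also differed in sex-linked transcripts, with Xist at 0.0323 and 29.0 FPKM and Kdm5d at 4.91 and 0. By title, the Y-linked reads thus lay in the library labelled control. In the numbered libraries they lay mostly in control library A and not in control library B. Of the 40 members with at least 1 FPKM, 32 were lower in the library labelled dKO and 8 were not, with a median log2 ratio of -0.34 (pseudocount of 1 FPKM, which understates changes of low genes). Over all 10778 genes at that level, 50.3% were lower and the median was 0.00.

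Apol9b and Apol9a again had the largest differences among the members. Apol9b had 25.6 FPKM in the library labelled control and 2.02 in the library labelled dKO, and Apol9a had 6.85 and 0.362. A log2 ratio of -1 or lower was reached by 5 members, against 3.25% of all genes, and 0 reached 1 or higher, against 3.12%. The other 3 were Oas1a (8.03 and 2.55 FPKM), Oas2 (8.67 and 3.41) and Usp18 (43.0 and 20.3). Oas3 (14.0 and 6.57), Oasl2 (10.5 and 4.97) and Oasl1 (7.70 and 4.15) went the same way, so all 5 Oas genes among the members were lower by title in this pair as well.

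Some members had unlike values in the experiments. Ifi44, which fell 10.4-fold in the numbered libraries, had 2.98 FPKM in the library labelled control and 2.75 in the library labelled dKO (log2 ratio -0.09). Ifit3 had 18.0 and 21.2, and Mx1 had 1.41 and 1.88, so neither was lower in the library labelled dKO. Ly6a, higher by 1.06 in dKO of the numbered libraries, had 238 and 181 FPKM. Whether these members differ between the experiments beyond the spread of libraries was not tested, since the pair has no replicates. Of the 14 members that fell in the numbered libraries, 13 were lower in the library labelled dKO, the exception being Ifit3, and 4 reached a log2 ratio of -1. The same share was not taken over all genes called lower, so this count is no result particular to the members. Across 40 members the log2 values of the experiments had a Spearman correlation of 0.51 (0.43 over 38 without the Apol9 genes), and across 9881 genes it was 0.59, where genes share libraries and are not independent.

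**Figure D4:**
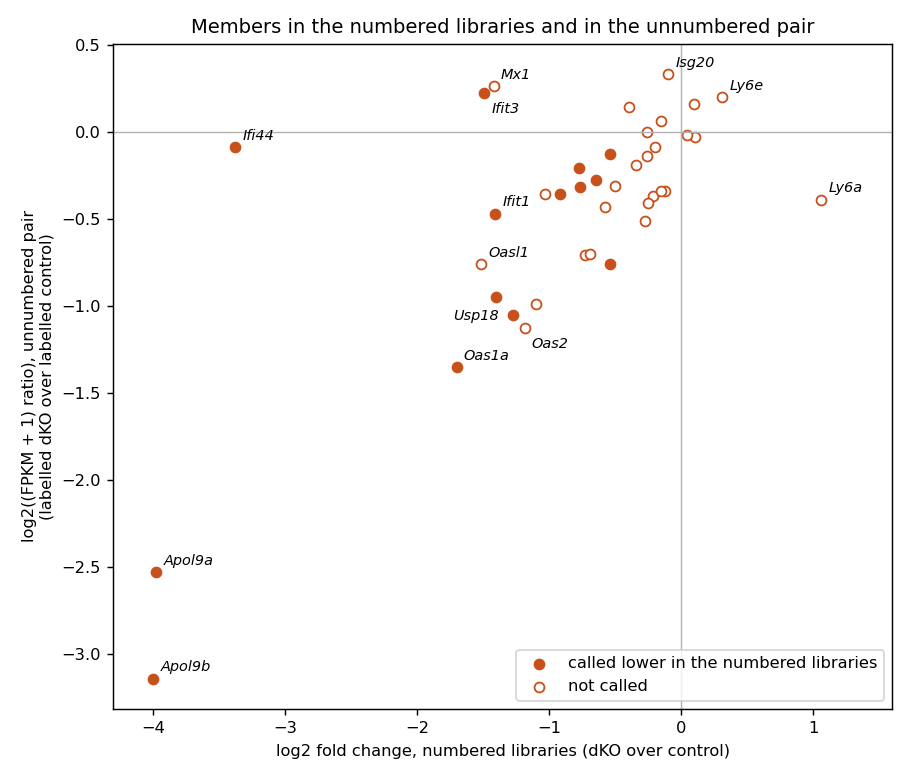
Log2 fold change in the numbered libraries (horizontal) against the log2 ratio of FPKM + 1 in the unnumbered pair by title (vertical) for 40 members, filled where called lower in the numbered libraries. Apol9a and Apol9b lie far down on both axes, and Ifi44 lies far left but near 0 on the vertical axis.

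By level per length, the pair also ordered the members. In the library labelled control, Ifi27l2a (1749 FPKM) and Ly6e (1202 FPKM) stood highest, followed by Ly6a (238), Bst2 (211), Zbp1 (155) and Sp100 (148). Apol9a (6.85), Mx2 (5.28), Ifi44 (2.98) and Mx1 (1.41) were the lowest that entered. Ifi44 and Apol9a, with some of the largest falls in the numbered libraries, were near the foot of this order, but so were Mx1 and Mx2, which did not pass there. Ifi27l2a and Ly6e at its head did not pass in the numbered libraries either. Apol9b, with the largest fall, had 25.6 FPKM, and Lgals3bp, which also fell, had 107. Whether level and fall go together over the members was not tested.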

How the data were processed

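The members and gene lists were chosen with earlier results of these data known. By rule, values in full went to members with an adjusted p under 0.1 and to the 6 most abundant of the rest, to at most 4 genes of another list by smallest adjusted p (with 0 called, the 2 of highest mean), to Id2 and Id3, and to 6 promoters; other members and list genes were named after their values were seen. Per the submitters' processing notes, the authors processed the numbered libraries with RSEM and DESeq on mm10 (GRCm38), and the unnumbered ones with TopHat 1.4.0 and Cuffdiff (0.0.6) on mm9. Aligner settings and use of strand are not given in the sources used here. The deposited signal columns hold group means of read counts over size factors, called scaled counts. The deposited log2 column compares those means, and the deposited score gives the same change as a signed fold. The deposited p-values, raw and adjusted over all genes, are those of the authors' DESeq test. The deposited FPKM were summed over the transcripts of a gene, after 97.5% of 27901 entries matched a RefSeq symbol, and compared as log2 with a pseudocount of 1. Per-library values cannot be tested from group means, so no test per gene and no SD is given. Whole control reads were recovered by solving each mean, to 4 decimals, for a pair of whole numbers, which gave exactly 1 pair for 19901 of 19901 means under 400, and for all 5 members printed, some of which lie above that level. The solver for control reads was tested on simulated data, and that for dKO reads was not. Near-identical transcripts (at least 90% identity over 50% of the length) were sought with blastn 2.17.0. Python 3.11.15 and pandas 2.3.3 were used. Alternatives are in the closing section.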

Additional observations from a re-analysis of the deposited data

How the results depend on the processing

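The count of 14 members that fell became 9 at an adjusted p under 0.01 and 8 with a log2 change of at least 1 required. It lay between 13 and 18 under the other alternatives, and the count of members that rose was 0 under each alternative run. The median log2 fold change of -0.56 became -0.69 without members that overlap another gene (fewer genes) and moved by at most 0.1 otherwise. The median over the 5 members with recovered control reads, -1.52, ran from -1.84 to -1.09 when 1 control library was left out. The share of member windows with an ISRE core fell from 55.3% to 36.8% in the 200 bases before the start, a shorter window, against 5.57% of all windows. In the pair, 5 to 7 members lay at a log2 ratio of -1 or lower under the pseudocounts, filters and transcript choices run, and the median ran from -0.35 to -0.34. No paired analysis was possible because the replicated table holds group means without replicate columns. Leaving out dKO libraries was likewise not run. Shallower dKO libraries limit low members most, such as Ifi204.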
